A study of Mus musculus with 24 samples.

Results

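The complement genes of the prefrontal cortex (PFC) were followed here as a set of 9: the C1q chains C1qa, C1qb and C1qc, the components C3 and C4b, the regulators Serping1, Cd59a and Cd55, and the receptor C3ar1. They were matched by symbol in a table of normalized counts for 14074 genes. Of the 9, 7 were in the table. C3 and C3ar1 were not analysed here. The data were RNA-seq libraries from 24 adult male C57BL/6 mice aged 10 to 12 weeks, 4 mice in each of 6 groups and 1 library per mouse. Control mice had no social defeat, whereas PS and AS mice went through 30 days of it and were then sorted by behaviour into a passive (PS) and an active (AS) coping strategy. Each of these phenotypes was given saline or 2 mg/kg dexamethasone (DEX), a synthetic agonist of the glucocorticoid receptor, and the PFC was taken 6 h later. Controls were kept singly for some days instead. No group is labelled with a genetic change, and PS and AS are classes set by clustering of behaviour, so they share the same defeat protocol.

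Complement is a cascade of proteins that tags surfaces for removal. C1q binds the surface and starts the classical pathway, C4 is cleaved next, and C3 cleavage follows. In the brain, C1q is made mainly by microglia and takes part in tagging synapses for removal, whereas host cells carry or secrete inhibitors that stop the cascade at successive steps.

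Depth ran from 21121869 to 59439645 reads on genes per library, and the median was higher in both AS groups (34242532 with saline, 37876626 with DEX) than in the other 4 groups. Each member had at least 65 reads in every library. The DEX labels were checked with Fkbp5 and Tsc22d3, targets of the glucocorticoid receptor, both higher with DEX in the 3 phenotypes (Fkbp5 by 1.91 to 2.26 and Tsc22d3 by up to 1.11 on the log2 scale), with no overlap between DEX and saline mice. Markers of frontal cortex neurons, Slc17a7, Cux2, Fezf2, Tbr1 and Neurod6, were present in every library, the lowest value being 364 normalized counts (Fezf2). Some libraries stood apart. The 5 with the lowest median Spearman correlation with the others over all genes (0.988 to 0.991) were AS DEX mouse 60, PS DEX mouse 34, control DEX mouse 101, control saline mouse 117 and AS saline mouse 44. The summed level of Th, Eomes, Cdhr1 and Doc2g, genes high in the olfactory bulb, was 4709 in control saline mouse 117 and 3719 in PS DEX mouse 34, against a median of 197 over the 24 libraries. AS saline mouse 14 (1691), PS saline mouse 2 (1653) and control DEX mouse 122 (938), not among those 5, came next. AS DEX mouse 60 (135) and AS saline mouse 44 (128), both among the 5, were below the median.

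C1qa, C1qb and C1qc encode the A, B and C chains of C1q and lie side by side on chromosome 4 on the minus strand (mm10, C1qb at chr4:136880129-136886187, C1qc at chr4:136889804-136893065 and C1qa at chr4:136895917-136898803). Promoter windows of 300 bases, from 250 before to 50 after the RefSeq start (GRCm38.p6), were at hand for 4 of the 7 members (C1qb, C1qc, Cd59a and Cd55). Those of the 2 C1q genes and of Cd59a, the one member that passed the test under DEX, are shown so that the results below can be read against their sequence. Capitals mark AGAACA, the hexamer that recurs in glucocorticoid response elements, and GAGGAA, the core that PU.1 of myeloid cells binds, on either strand (TGTTCT and TTCCTC when read on the other strand).
C1qb: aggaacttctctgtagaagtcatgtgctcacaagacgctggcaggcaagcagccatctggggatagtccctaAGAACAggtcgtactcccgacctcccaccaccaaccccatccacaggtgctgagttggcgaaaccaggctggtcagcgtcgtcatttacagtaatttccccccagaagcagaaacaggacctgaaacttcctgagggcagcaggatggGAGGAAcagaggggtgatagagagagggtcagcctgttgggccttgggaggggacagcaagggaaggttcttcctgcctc
C1qc: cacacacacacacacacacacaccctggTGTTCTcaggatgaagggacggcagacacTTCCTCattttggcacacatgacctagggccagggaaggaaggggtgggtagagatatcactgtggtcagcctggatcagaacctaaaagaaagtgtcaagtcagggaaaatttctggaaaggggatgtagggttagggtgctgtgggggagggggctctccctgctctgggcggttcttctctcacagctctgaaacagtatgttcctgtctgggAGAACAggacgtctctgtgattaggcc
Cd59a: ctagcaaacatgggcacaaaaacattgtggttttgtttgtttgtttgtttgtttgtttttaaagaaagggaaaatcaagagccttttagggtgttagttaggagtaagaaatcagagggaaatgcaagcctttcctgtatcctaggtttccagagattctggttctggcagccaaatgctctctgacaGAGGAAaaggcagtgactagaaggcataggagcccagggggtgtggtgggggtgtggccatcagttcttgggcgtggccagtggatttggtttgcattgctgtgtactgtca
The windows are chr4:136886151-136886450 for C1qb, chr4:136892865-136893164 for C1qc (both on the minus strand) and chr2:104095551-104095850 for Cd59a (plus strand). With the RefSeq start of each window as position 0, AGAACA began at -178 in C1qb, and at -222 (other strand) and 23 in C1qc. For C1qb and C1qc this start is not the gene end in the coordinates above. The C1qc gene reaches 136893065, so part of its window before the RefSeq start lies inside the gene. Positions counted from the gene ends would differ. It was not found in the windows of Cd59a and Cd55. GAGGAA began at -30 in C1qb, at -193 (other strand) in C1qc and at -62 in Cd59a. TTCNNNGAA, the STAT core, was in none of the 4 windows. Of 32851 promoter windows of the same length, 19.0% held AGAACA, 28.3% held GAGGAA and 8.30% held TTCNNNGAA. These are matches of letters only.

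Compared per length of exon, the C1q chains were the most abundant members. Over the 24 libraries C1qa had 1021 ± 125 normalized counts per kb (SD, n = 24) and C1qb had 989.9 ± 124. The ranges of these 2 overlapped, and C1qa was the higher in 15 of 24 libraries. C1qc followed at 484.8 ± 65.4 per kb, below C1qb in all 24 libraries. The other components and regulators were far lower per kb: Serping1 at 123 ± 38.4, C4b at 84.8 ± 23.1, Cd59a at 70.9 ± 17.1 and Cd55 at 26.9 ± 4.16. In this order the ranges of Serping1 and C4b overlapped, as did those of C4b and Cd59a, whereas Cd55 lay below Cd59a in every library. Spread between mice differed too. On the scale of normalized counts the C1q chains varied by 12.2% to 13.5% (coefficient of variation), Cd55 by 15.5%, Cd59a by 24.1%, C4b by 27.3% and Serping1 by 31.1%. The plot of normalized counts by mouse shows all 7.

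**Figure D1:**
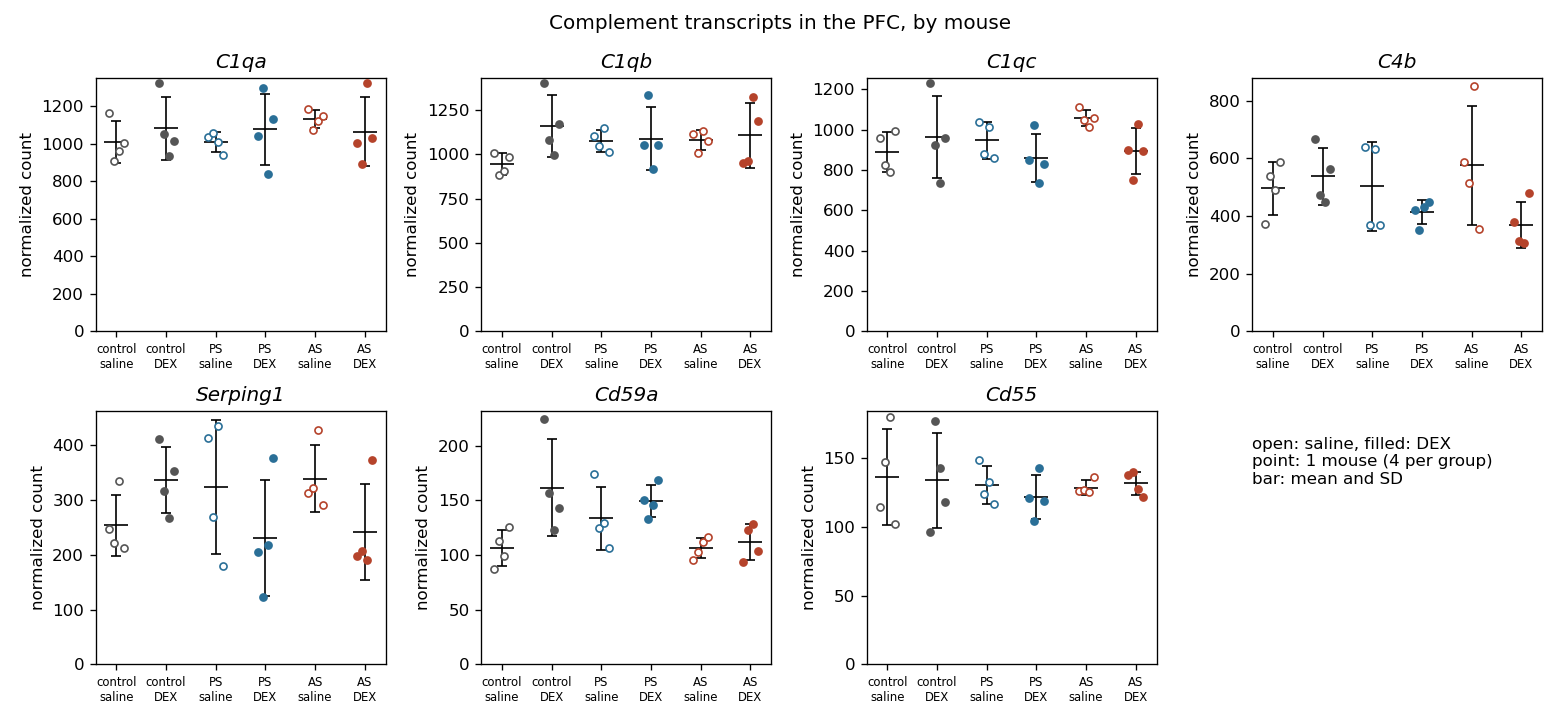
Normalized counts (y axis, from 0) of the 7 complement members in each mouse, by group (x axis); points are mice, 4 per group, open for saline and filled for DEX, and bars are the mean and SD. The C1q chains stay within a narrow band in all groups, the control DEX mice have a higher mean for Cd59a (162 against 107 with saline) with 1 of the 4 inside the saline range, and C4b and Serping1 spread widely.

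Chronic stress was examined first, in saline-treated mice. None of the 7 members was called in PS or AS mice against control or against each other. In PS mice against control the members' log2 fold changes ran from -0.03 to 0.31, with a median of 0.09 against 0.0023 over all genes. In AS mice they ran from -0.05 to 0.42, with a median of 0.17 against 0.0031, and 6 of 7 were above 0. A gene was called at a Benjamini-Hochberg adjusted p under 0.1 in limma, which was the case for 1.51% of the 14074 genes in PS against control, 0.156% in AS against control and 0% in AS against PS. No member had an unadjusted p under 0.05 in these 3 comparisons, and edgeR and DESeq2 on the recovered reads called 0 members as well.

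For the C1q chains the estimates against control were 0.01 to 0.19 in PS mice and 0.17 to 0.25 in AS mice, and none passed the test. C1qb was at 1008, 884, 906 and 985 normalized counts in the 4 control mice and at 1102, 1047, 1150 and 1010.2 in the 4 PS mice, so that every PS mouse lay above every control. The difference was 0.19 on the log2 scale (SE 0.11), with an adjusted p of 0.492 in limma. C1qc was at 961, 824, 791 and 992 in control mice and at 1112, 1050.1, 1012 and 1058 in AS mice, again with no overlap. Its difference was 0.25 (SE 0.12, adjusted p = 0.460 in limma). C1qa was also higher in all AS mice (1071 to 1186) than in all PS mice (938 to 1059), by 0.16 (SE 0.12, adjusted p = 0.934 in limma). The share of all genes without overlap in these comparisons was not counted, so these separations are given as description only. In bulk tissue, more cells of a type and more RNA per cell cannot be told apart. The 20 microglia markers moved the same way in AS mice against control, with 19 of 20 above 0 and a median of 0.20, and none was called. In PS mice 14 of 20 were above 0, with a median of 0.10, and none was called. Their summed level was 15007 to 16526 in control, 15717 to 17262 in PS and 17297 to 18384 in AS mice, so that PS mice overlapped control. Whether this level has a part in the C1q values was not tested.

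Serping1 encodes the C1 inhibitor, which switches off the proteases that C1q carries. It was at 247, 221, 334 and 211 normalized counts in control mice with saline. The values were 412, 268, 435 and 179 in PS mice and 313, 321, 428 and 290.3 in AS mice. All groups overlapped, and the difference from control was 0.29 (SE 0.28) in PS and 0.42 (SE 0.28) in AS mice, with adjusted p of 0.703 and 0.590 in limma. C4b, the fourth component, which is deposited on surfaces after C1q binds, fell into a high and a low pair of PS mice (640, 633 and 368, 370.0). Control mice with saline were at 373, 539, 491 and 587, and AS mice at 588, 514, 849.6 and 355. C4b in AS mice thus ran from below the lowest control to far above the highest, and neither difference (-0.02 in PS, 0.16 in AS, SE 0.22 for each) exceeded this spread.

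Cd59a encodes a membrane protein that blocks the terminal pore of complement, and it was the one member called with DEX in limma over all 24 libraries. In control mice it was at 87.7, 113, 99.6 and 126 normalized counts with saline and at 225, 157, 123 and 143 with DEX. Of the DEX mice, 3 lay above all saline mice and the lowest lay just below the highest saline mouse. The rise was 0.57 on the log2 scale (SE 0.17, 1.49-fold), with a Benjamini-Hochberg adjusted p of 0.0483 in limma. In control mice, DEX changed 6.49% of all genes, and 1 of the 7 members. C1qb and Cd59a were the 2 members with an unadjusted p under 0.05 there, and edgeR and DESeq2 each called 1 member. The call did not hold in a model of the 8 control mice alone (adjusted p = 0.138), nor without some single libraries. Without control DEX mouse 101 the difference was 0.40 and the adjusted p 0.215, without saline mouse 106 it was 0.49 (adjusted p = 0.173), and without saline mouse 109 it was 0.55 (adjusted p = 0.105), all in limma. Mouse 101 is also one of the 5 libraries that stood apart, and without those 5 the rise was 0.49 with an adjusted p of 0.0994.

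The DEX estimates of Cd59a in stressed mice were nearer to 0 and were not called. PS mice were at 175, 125, 129 and 106 with saline and at 151, 133, 146 and 169 with DEX, which overlap. AS mice were at 95.7, 103, 112 and 116 with saline and at 93.8, 123, 129 and 104 with DEX, which overlap as well. The DEX differences were 0.18 (SE 0.17) in PS and 0.07 (SE 0.17) in AS mice. The response in AS mice was 0.51 lower than that in control mice in the point estimate (-0.51, SE 0.23), yet with an adjusted p of 0.342 in limma the difference between the responses was not called. Averaged over the 3 phenotypes, Cd59a rose by 0.27 (SE 0.10, adjusted p = 0.0667 in limma). It was the 1 member called there, against 15.5% of all genes. The average lost its call in 9 of 24 runs without a single mouse, with adjusted p up to 0.125, namely those without control mice 101, 106 or 109, PS mice 28, 56 or 68, or AS mice 8, 42 or 60. It was also lost with edgeR on reads thinned to the shallowest library (adjusted p = 0.169). Among DEX-treated mice, AS minus control was -0.50 (SE 0.17, adjusted p = 0.191 in limma), and -0.62 with an adjusted p of 0.0785 without control DEX mouse 112.

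**Figure D2:**
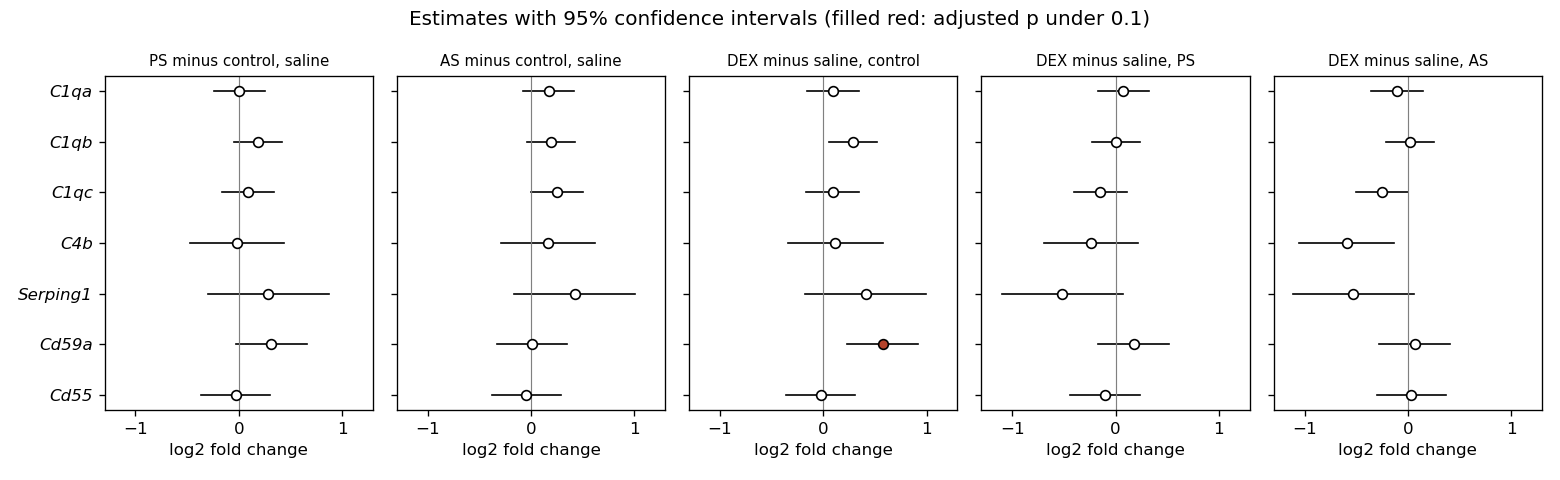
Log2 fold change (x axis) of each complement member (y axis) in 5 comparisons, from limma over all 24 libraries; lines are 95% confidence intervals and red marks an adjusted p under 0.1. Cd59a with DEX in control mice (0.57) is the one red point, and C4b with DEX in AS mice (-0.59) is the lowest estimate.

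The estimates of C4b and Serping1 with DEX were below 0 in both stressed phenotypes, and none passed the test. In AS mice C4b went from 588, 514, 849.6 and 355 with saline to 381, 314, 305 and 479 with DEX. Only the low saline mouse 44 fell among the DEX values. The difference was -0.59 (SE 0.22), with an adjusted p of 0.128 in limma. Without AS saline mouse 44 it was -0.80 with an adjusted p of 0.0204, and without AS DEX mouse 72 it was -0.73 with an adjusted p of 0.0824. edgeR and DESeq2 on the recovered reads called it, with adjusted p of 0.0807 and 0.0380. Without the 5 libraries that stood apart, C4b (-0.72, adjusted p = 0.0287) and C1qc (-0.32, adjusted p = 0.0451) were both called in AS mice in limma. That run was added after the data were seen, and it leaves out the mice that overlapped. Saline mouse 44 was the overlapping one for C4b, as in the run without it alone. DEX mouse 60 was the only DEX mouse within the saline range of C1qc (1030 against 1012 to 1112). These calls are therefore not separate evidence. In PS mice C4b was at 421, 352, 431 and 447 with DEX, of which 3 lie between the high and the low pair with saline and mouse 34 lies below both pairs. In control mice it was at 667, 472, 451 and 563 with DEX, and the DEX difference was 0.12 (SE 0.22). None of the 7 members was called with DEX in PS mice, where 5.36% of all genes were, nor in AS mice, where 8.77% were. C4b was the 1 member with an unadjusted p under 0.05 in AS mice, and there was none in PS mice.

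Serping1 pointed up with DEX in control mice and down in both stressed phenotypes. With DEX it was at 410.1, 316, 267 and 352 in control mice, at 205, 122, 217 and 375 in PS mice, and at 197, 206, 191 and 372 in AS mice. In AS mice, 3 of the 4 DEX mice lay below all saline mice and mouse 72 lay among them. DEX minus saline was 0.41 in control mice, -0.52 in PS mice and -0.53 in AS mice (SE 0.28 for each), with adjusted p of 0.551, 0.465 and 0.339 in limma. The interaction, the response of stressed mice minus that of control mice, was -0.93 in PS and -0.94 in AS mice (SE 0.40 for each). Its unadjusted p was 0.0297 and 0.0278, but the adjusted p was 0.441 and 0.297 in limma, so it was not called. The interactions in PS, in AS and of AS against PS called 0 of the 7 members, against 0%, 0.348% and 0% of all genes. Members with an unadjusted p under 0.05 numbered 1 (Serping1), 3 (C4b, Serping1 and Cd59a) and 0, and edgeR and DESeq2 called 0. The median interaction of the 7 members was -0.28 in PS and -0.34 in AS mice, against 0.0022 and 0.0015 over all genes. A negative median was not particular to them. In PS and AS mice in turn it was -0.26 and -0.26 for the microglia list, -0.30 and -0.25 for astrocytes and -0.49 and -0.89 for endothelial cells. The oligodendrocyte (0.53 and 0.82), neuron (0.12 and 0.21) and frontal cortex (0.27 and 0.33) lists were above 0.

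After DEX, all 7 members were below 0 in PS mice against control mice, with a median of -0.11, and 6 of 7 were in AS mice, with a median of -0.09. None was called in limma, where 0.199% and 0.867% of all genes were. Serping1 in PS mice (-0.64, SE 0.28) and C4b (-0.55, SE 0.22) and Cd59a in AS mice had an unadjusted p under 0.05. edgeR called 0 members in both comparisons, and DESeq2 called 0 in PS and 1 (Cd59a) in AS mice. C4b was lower in all 4 PS mice (352 to 447) than in all 4 control mice (451 to 667). The gap was narrow (447.2 against 450.5), and the share of all genes without overlap was not counted. These comparisons share their control mice with the DEX comparison in control mice, so they are not separate evidence. Other lists leaned the same way. In PS and AS mice in turn, 1 and 7 of 20 microglia markers and 1 and 2 of 12 astrocyte markers were above 0. Of the 8 oligodendrocyte markers all 8 were above 0 in both, and of the 8 neuron markers 5 were.

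Markers of leptomeningeal fibroblasts, the cells of the brain's coverings, moved with Serping1. The summed level of the 9 measured markers was 3309 to 4708 in control mice with saline and 3807 to 6138 with DEX. It was 3023 to 6787 and 2055 to 5471 in PS mice, and 4347 to 6460 and 2980 to 5207 in AS mice, with saline and DEX in turn. Their median DEX response was 0.28 in control mice (9 of 9 above 0, 1 called), -0.67 in PS mice (0 of 9 above 0, 0 called) and -0.59 in AS mice (0 of 9 above 0, 1 called). Across the 24 libraries, after the group means were removed, Serping1 followed the mean of these markers with Pearson's r of 0.96, and C4b with 0.68. For C1qa, C1qb and C1qc the values were -0.05, 0.01 and 0.01. The 5 measured border macrophage markers gave 0.91 for Serping1 and 0.63 for C4b. For C4b these lists were not alone, as the astrocyte list gave 0.59 and the mural list 0.43. The oligodendrocyte (-0.47), neuron (-0.18) and frontal cortex (-0.57) lists were below 0 for C4b. For Serping1 the astrocyte and mural lists gave 0.49 and 0.54. The part of these cells in the Serping1 and C4b values was not tested. The endothelial and mural lists had the same signs, with median DEX responses of 0.37 and 0.28 in control, -0.27 and -0.31 in PS and -0.61 and -0.71 in AS mice. Of 5 choroid plexus markers, Ttr, Folr1, Kl and Clic6 were not in the table, so that this list rests on 1 gene of low level. That gene, Kcnj13, ran from 14.6 to 99.4 normalized counts and followed Serping1 with r = 0.95 and C4b with 0.60. Its DEX estimate was 1.13 in control mice, where the groups did not overlap, -0.65 in PS mice and -0.29 in AS mice (SE 0.41 for each), and it was not called in any of the 3 (adjusted p = 0.137, 0.555 and 0.792 in limma). Its part in the Serping1 values was not tested.

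The genes most like each member, by the same measure over all genes, gave a similar grouping. For Serping1 they were Col1a2 (r = 0.96), Fmod (0.96) and Colec12 (0.95), of which the first encodes a fibrillar collagen. For C4b they were Thbs2 (0.84), Cd74 (0.82) and Svil (0.82). For Cd59a they were Laptm4a (0.79), Pmp22 (0.75) and B4galt4 (0.75). For Cd55, which encodes decay-accelerating factor, a membrane inhibitor of the C3 convertases, they were Dsel (0.85), Arhgap42 (0.82) and Syt4 (0.80). For the mean of the 3 C1q chains they were Ctsd (0.94), Rpl29 (0.94), Rpsa (0.94), Apoe (0.93) and Rplp0 (0.93), of which 3 encode ribosomal proteins. Serping1 and C4b had an r of 0.65 with each other. The C1q chains had an r of 0.84 to 0.88 among themselves. With Cd55 the chains had an r of -0.59 to -0.52. These values describe 24 libraries that differ in depth, with counts scaled for it. Genes of a library can still share other features of that library.

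Cd55 was the steadiest of the regulators. Its group means ran from 122 to 136 normalized counts. DEX minus saline was -0.03 in control mice, -0.10 in PS mice and 0.03 in AS mice (SE 0.16 for each), and the groups overlapped in all 3. The 95% intervals were -0.36 to 0.31 for control mice, -0.44 to 0.23 for PS mice and -0.30 to 0.37 for AS mice. Changes within these bounds are compatible with the data.

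No C1q chain was called with DEX over all 24 libraries, whereas several microglia markers fell. In limma, C1qc was called without the 5 libraries that stood apart, in AS mice (-0.32, adjusted p = 0.0451) and for the average response (-0.18, adjusted p = 0.0412). C1qb was called in control mice without DEX mouse 112 (0.36, adjusted p = 0.0902). Each of these runs left out a DEX mouse within the saline range of its phenotype for that gene. These were AS mouse 60 for C1qc and control mouse 112 for C1qb. Of the 20 microglia markers, which hold no complement gene, DEX lowered 3 and raised 1 in control mice, lowered 7 in PS mice and lowered 9 in AS mice, with median differences of -0.08, -0.37 and -0.34. Cx3cr1, the fractalkine receptor, fell by 0.83 in PS and 0.73 in AS mice on the log2 scale (adjusted p = 2.81e-05 and 1.19e-04 in limma). P2ry12, a purine receptor of resting microglia, fell in all 3 phenotypes, by 0.42 in control mice, 0.69 in PS mice and 0.51 in AS mice. The DEX differences of the C1q chains were 0.09 to 0.29 in control mice, -0.15 to 0.08 in PS mice and -0.25 to 0.02 in AS mice. The largest was that of C1qb in control mice. It was at 1403, 1080.3, 995 and 1169.9 with DEX against 884 to 1008 with saline, a difference of 0.29 (SE 0.11, adjusted p = 0.179 in limma).

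C1q was therefore also set against the microglia markers of the same library, as the summed level of its 3 chains in percent of the summed level of the 20 markers. In control mice it was 19.0%, 17.1%, 17.7% and 19.3% with saline and 21.9%, 20.2%, 19.7% and 19.6% with DEX, with no overlap. In PS mice it was 18.4%, 17.8%, 20.1% and 17.9% with saline and 22.3%, 25.7%, 18.5% and 21.9% with DEX, where DEX mouse 52 lay within the saline range. In AS mice it was 19.2%, 17.7%, 17.8% and 19.0% with saline and 19.7%, 19.4%, 23.6% and 19.8% with DEX, with no overlap, though the gap between the groups was narrow. With DEX the mean was higher by 2.07 percentage points in control mice and by 2.21 in AS mice, each with p = 0.0286 in a two-sided exact permutation test, the smallest p that 4 against 4 allows. In PS mice the difference was 3.52 percentage points (exact permutation p = 0.0571), and it was 2.33 without DEX mouse 34. Over the 5 comparisons made, the Benjamini-Hochberg adjusted p was 0.0714, 0.0714 and 0.0952. The marker list was chosen with earlier results of these data known, and the fall of its markers with DEX enters the percentage as the denominator. These p-values are therefore not separate evidence of a change in C1q. In AS mice the difference was 1.20 percentage points without DEX mouse 60. Stress alone left the percentage at 18.6 ± 1.08 in PS and 18.4 ± 0.757 in AS mice against 18.3 ± 1.02 in control mice (SD, n = 4 per group, exact permutation p = 0.714 and 0.800).

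**Figure D3:**
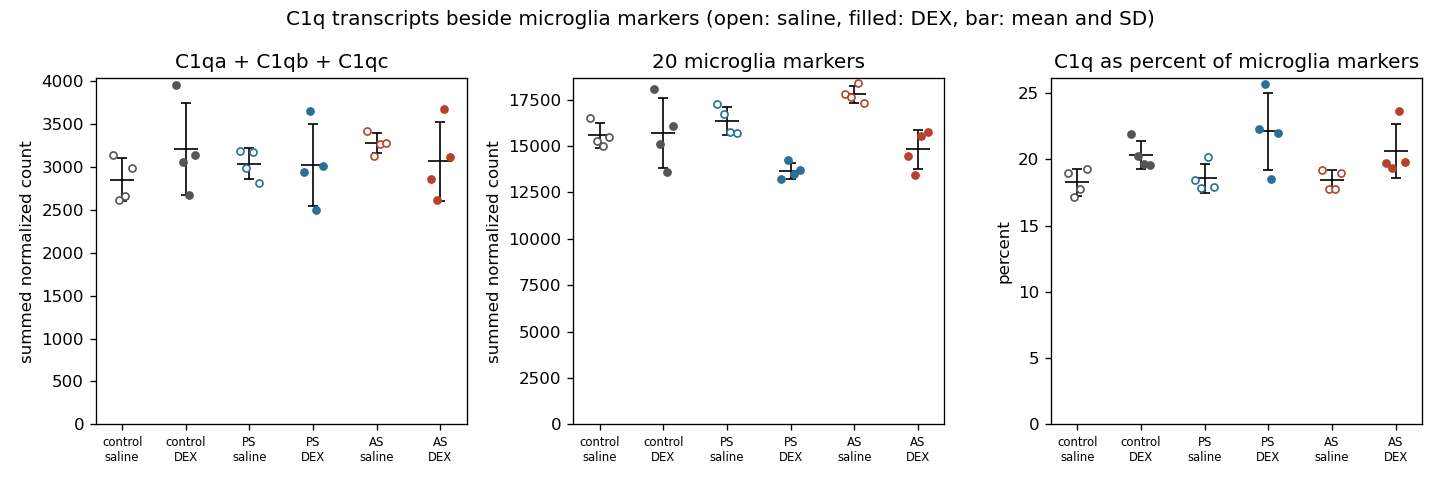
Summed normalized counts of C1qa, C1qb and C1qc (left), of 20 microglia markers (middle) and the first as percent of the second (right, y axes from 0) by group (x axis), open for saline and filled for DEX; bars are the mean and SD of 4 mice. The marker sum in PS DEX mice (13211 to 14229) lies below that in PS saline mice (15717 to 17262), whereas the C1q sums overlap.

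A feature of the libraries ran along with C1q. The mean log2 level of 675 genes with exons under 1500 bases minus that of 5477 genes with exons over 5000 bases was taken for each library, without the members. After group means were removed, it had an r of 0.79 with the mean of the C1q chains and 0.84 with the log2 of the C1q percentage over the 24 libraries. The 80 cytosolic ribosomal protein genes gave 0.85 and 0.86. The mean of the 20 microglia markers had an r of 0.86 with the mean of the C1q chains. The exons of C1qa, C1qb and C1qc span 1040, 1088 and 1931 bases, and the median of the microglia markers is 2537. Within a phenotype the group means of the length measure lay close together: -0.07 with saline and -0.11 with DEX in control mice, 0.03 and 0.02 in PS mice, and 0.07 and 0.05 in AS mice. Between control and stressed mice they lay further apart. The ribosomal measure with saline was -0.11 in control, 0.08 in PS and 0.09 in AS mice, with overlapping ranges. With DEX it was -0.11, 0.05 and 0.01. The part of these measures in the C1q percentage, and in the C1q values under stress, was not tested. Without the 5 libraries that stood apart, the percentage was higher with DEX by 1.89 points in control mice, 2.33 in PS mice and 1.38 in AS mice.

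**Figure D4:**
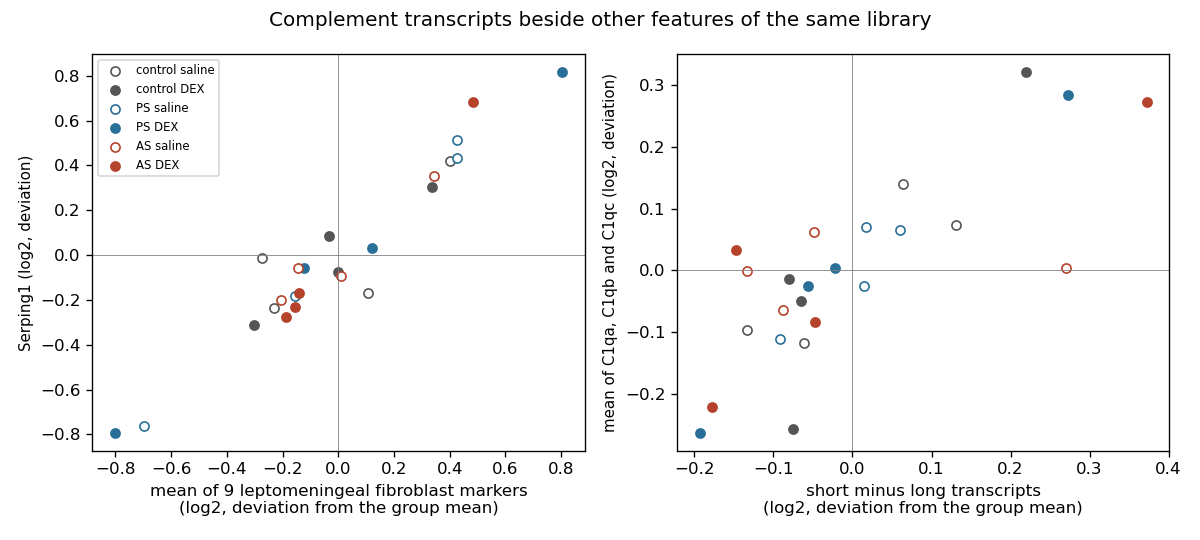
Each point is a mouse, as log2 deviation from its group mean: Serping1 (left, y axis) against the mean of 9 leptomeningeal fibroblast markers (x axis), and the mean of the 3 C1q chains (right, y axis) against short minus long transcripts (x axis). Serping1 follows the markers closely (r = 0.96), and the C1q mean follows the length measure (r = 0.79).

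Of 57 further complement genes, 19 were in the table: the components C1ra, Cfp, Masp1 and Colec12, 9 regulators (among them Cd46, Cr1l, Clu, Vtn, Susd4, Csmd1, Csmd2 and Csmd3) and 6 receptors (Itgam, Itgb2, Cd93, C1qbp, Calr and Lrp1). None of the 19 was called under stress with saline or with DEX in control mice. With DEX, 1 of the 19 fell in PS mice, where 5.36% of all genes were called, 4 fell in AS mice, where 8.77% were, and none rose. The share in PS mice is near that of all genes. Itgam, one chain of complement receptor 3, went from 173 to 220 normalized counts with saline to 114 to 145 with DEX in PS mice, without overlap. The fall was 0.62 on the log2 scale (SE 0.14, adjusted p = 0.0101 in limma), and in AS mice Itgam fell by 0.47 (SE 0.14, adjusted p = 0.0509). Itgam is also a microglia gene, as is Itgb2, the other chain of the receptor, which fell by 0.33 in AS mice (adjusted p = 0.0837). Cd93, a receptor of endothelial and myeloid cells, had the largest fall, from 139 to 280 with saline to 44.9 to 113 with DEX in AS mice. Cd93 fell by 1.32 (SE 0.29, adjusted p = 0.00598). Vtn, vitronectin, which blocks the terminal complex and is also a mural cell gene, fell by 0.70 in AS mice (SE 0.16, adjusted p = 0.00730). The median DEX response of the 19 genes was 0.00048 for control mice, -0.06 for PS mice and -0.10 for AS mice. Cd93 and Vtn were also lower in AS than in control mice after DEX, by 1.20 and 0.60 (adjusted p = 0.0702 and 0.0968 in limma). With 1 mouse left out in turn, these 2 calls held in 18 and 9 of 24 runs, with adjusted p up to 0.240 and 0.369, and that of Itgam in AS mice held in 21 (not without AS mice 8, 40 or 42). With library size as a covariate the calls of Cd93 and Vtn were lost (adjusted p = 0.472 and 0.654), and over all 35 alternatives they held in 27 and 14. Averaged over the phenotypes, where 15.5% of all genes were called, 5 of the 19 fell with DEX and none rose, of which the 3 with the largest fall were Cd93 (0.63 on the log2 scale), Itgam (0.41) and Vtn (0.37).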

How the data were processed

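PFC libraries from 24 mice were used, 4 per group. The DRN libraries were not analysed here. Libraries were strand-specific. The authors trimmed reads with fastp 0.20.1, aligned them to mm10 with HISAT2 2.2.1 and counted them on genes with featureCounts. Values were deposited as a signal, namely counts per gene after the authors scaled every library by its DESeq2 size factor. They were whole multiples of 1 read, within 0.01 read, for 100% of the values, so that reads were recovered for depth and count models. Reads shared with near copies (C4a, Cd55b or Cd59b, none in the table) make C4b, Cd55 and Cd59a uncertain. Other deposited columns hold the authors' fold changes and p-values and were not used.

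limma 3.58.1 in R 4.3.3 was fitted to log2(normalized count + 1) of all 14074 genes, with one mean per group. Benjamini-Hochberg adjusted p under 0.1 was called. Fold changes on this scale understate those of low genes. No replicate numbers were shared between groups. All pairs of libraries within a group differed beyond counting noise (lowest chi-square per gene 5.57). Confidence intervals are at 95%. The smallest exact p, 4 against 4, was 0.0286.

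The 9 members and all marker lists were chosen with earlier results of these data known. Besides the members, named genes were, of the further complement genes, up to 3 called rises and 3 falls by size per comparison, Fkbp5 and Tsc22d3, and the genes most correlated with each member (5 for C1q, 3 for others, over within-group deviations). Some genes of these lists are not reported here. Itgb2 and the microglia genes named with values were chosen after their values were seen, as were the length measure, the olfactory bulb genes and the run without 5 libraries. On simulated counts with 200 changed genes in the DEX comparison of control mice, limma recovered 98% with 10.1% false calls. The planted changes were 2-fold, larger than every member estimate in limma over all 24 libraries, and left out genes of low level. Recovery of changes as small as those of the members was not examined. Alternatives are given with their effect at the end. Exon lengths are from GENCODE vM21, and promoters from RefSeq. Figures were drawn with matplotlib.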

Additional observations from a re-analysis of the deposited data

Results flagged for a closer look

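Across 48 sets of 4 mice (7 members and the C1q percentage, in 6 groups), 3 had an end value whose gap to its neighbour passed Dixon's 95% limit, where chance gives about 1 in 20. Serping1 in AS DEX mouse 72 was 371.9 normalized counts, against 191 to 206 in the other 3 mice. Cd55 in AS saline mouse 44 was 136 normalized counts, against 125 to 127, a gap within the range of the other groups. The C1q percentage of microglia markers in AS DEX mouse 60 was 23.6%, against 19.4% to 19.8%. The libraries of mice 44 and 60 are among the 5 that stood apart over all genes.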

How the results depend on the processing

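The counts of members called were recomputed under 35 alternatives. Alternatives with no single mouse left out changed them as follows. With only the groups compared in the model, 0 members were called for DEX in control mice, in place of 1. For DEX in AS mice, edgeR and DESeq2 on recovered reads and the run without PS saline mice 2 and 62 each called 1 in place of 0. For the average DEX response, edgeR on thinned reads called 0 in place of 1. For AS against control mice after DEX, DESeq2 called 1 in place of 0. The run without the 5 libraries least like the others, added after seeing the data, called 2 for DEX in AS mice and 2 for the average response. Leaving out 1 mouse gave counts of 0 to 2 for DEX in control mice, 0 to 1 in AS mice, 0 to 2 for the average response, 0 to 1 for AS against control mice after DEX, 0 to 1 for the interaction in AS mice, and 0 in every such run of the other 7 comparisons. Apart from C4b, Cd59a and C1qc above, C1qb was called without control DEX mouse 112 (0.36, adjusted p = 0.0902 in limma), C4b for the interaction without AS saline mouse 44 (-0.92, adjusted p = 0.0972) and C4b for the average response without the same mouse (-0.31, adjusted p = 0.0922). Of 2940 member values, 2913 kept their side of the threshold and no called value changed sign.

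The DEX difference of the C1q percentage kept its sign with each mouse left out, at 1.55 to 2.41 points in control, 2.33 to 4.72 in PS and 1.20 to 2.63 in AS mice, runs in which 3 against 4 cannot reach p under 0.05. The differences under stress alone lay between -0.23 and 0.64 for PS mice and between -0.24 and 0.48 for AS mice. With means of log2 values in place of sums, the difference in PS mice was 0.35 (exact permutation p = 0.0286). The alternative of all genes in the table was the fit itself. No paired analysis was possible because mouse numbers do not recur between groups. Depth limits Cd59a and Cd55 most, which had 65 and 74 reads in their shallowest library. The cause of these changes was not tested.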
